A study of Mus musculus with 9 samples.

Results

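The family of miR-15, miR-16 and miR-195 comprised 5 mature microRNAs (miRNAs) on these arrays, mmu-miR-15a, mmu-miR-15b, mmu-miR-16, mmu-miR-195 and mmu-miR-497, written here without the species prefix. They were chosen by name, as miRNAs of 3 gene clusters that share a seed, and no measured value entered the rule. Earlier results of these data were known when they were chosen. They were 5 of 611 mouse miRNA names on the array and 5 of the 318 that were detected well enough to be tested. All samples were primary visual cortex, taken on postnatal day 28 from mice of the C57BL6 strain, with no genetic change named in the labels. The 3 control samples came from mice kept on a normal light and dark cycle. The 3 dark-reared samples came from mice kept in the dark from birth to day 28. The 3 monocularly deprived samples came from mice with normal rearing whose lids were sutured over 1 eye from day 24 to day 28, and only the cortex opposite that eye was taken. The labels do not say whether a replicate was 1 animal or a pool, so the spread behind each p-value is that of these samples and may be technical.

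A miRNA guides the Argonaute protein to messenger RNAs, mainly by pairing of its seed, bases 2 to 8 from the 5′ end, and the target is then less stable and less translated. miRNAs with the same seed can act on overlapping sets of targets. The miR-15/16 family is best known for repressing BCL2, an inhibitor of cell death, and cyclins that drive entry into the cell cycle, and the human miR-15a/16-1 locus is lost in many chronic lymphocytic leukaemias. In mouse heart, miR-195 is known to restrain the division of heart muscle cells after birth. In mouse brain, miR-16 has been tied to the serotonin transporter, and miR-497 to neuronal death after ischaemia. Lid suture and dark rearing are standard ways to alter vision while cortical circuits are still plastic, and the comparisons address which miRNAs differ in visual cortex after each.

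The mature sequences, from RefSeq on GRCm38.p6, are shown because the members share a seed and the bases after it decide which array probe reads which member. Capitals mark the seed.
miR-15a: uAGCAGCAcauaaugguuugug
miR-15b: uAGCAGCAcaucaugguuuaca
miR-16: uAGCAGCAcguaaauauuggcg
miR-195: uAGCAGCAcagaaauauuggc
miR-497: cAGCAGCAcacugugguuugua
All 5 members matched a RefSeq entry, where miR-195 and miR-497 are listed as miR-195a-5p and miR-497a-5p. The seed AGCAGCA is held by 10 of the 1679 mature mouse names in that table. No pair of members differs in the seed. Outside it, miR-16 and miR-195 differ at only 2 of 21 bases and miR-15a and miR-15b at 4 of 22, whereas miR-16 and miR-497 differ at 11 of 22. Likeness in sequence therefore runs across the clusters: the closest pair, miR-16 and miR-195, comes from different chromosomes.

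The members lie in 3 clusters. Mature miR-15a is at chr14:61632075-61632096 on the minus strand, and its hairpin gene Mir15a is 54 bases from Mir16-1. Both lie within the span of Dleu2, a long non-coding RNA gene. Mature miR-15b is at chr3:69009775-69009796 on the plus strand, and Mir15b is 66 bases from Mir16-2. Both lie within the span of Smc4, which encodes a subunit of condensin, the complex that compacts chromosomes. Mature miR-16 is made from both loci, at chr14:61631936-61631957 on the minus strand and chr3:69009918-69009939 on the plus strand, and the array cannot separate the 2 sources. Mature miR-497 is at chr11:70234730-70234751 and miR-195 at chr11:70235062-70235082, both on the plus strand. Their hairpin genes are 241 bases apart, and no other gene of the RefSeq table overlaps them.

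Each member was read by 2 probes of different length, with 10 spots per probe on each array. The longer probe of each member is shown because it was the brighter one on all 9 arrays, in DNA letters, 5′ to 3′, with the bases that pair with the seed in capitals.
miR-15a probe: cacaaaccattatgTGCTGCTa
miR-15b probe: tgtaaaccatgatgTGCTGC
miR-16 probe: cgccaatatttacgTGCT
miR-195 probe: gccaatatttctgTGCTGC
miR-497 probe: tacaaaccacagtgTGCTGC
Each probe pairs with its miRNA from the 3′ end and stops inside the seed except for miR-15a. Aligned to the other members, these probes carry 2 to 10 mismatches. The miR-195 probe has 2 mismatches to miR-16 and the miR-16 probe has 3 to miR-195. How far these arrays read one for the other was not tested.

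Values are fluorescence intensities. Each array was scaled to its own 75th percentile over well-detected probes and put on a log2 scale, so that 0 is the level of that percentile. A brighter probe does not mean a more abundant miRNA, so levels are compared between samples and not between members. All 5 members were called detected on all 9 arrays, with every probe well above background and 0 saturated spots. Of 900 member spots, 33 were left out as outliers, and the spread over the spots of a probe had a median coefficient of variation of 3.39%. The arrays detected 297 to 359 mouse miRNAs each, and log2 levels correlated within groups at Pearson's r of 0.972 to 0.999. Of the neuronal marker miRNAs (such as miR-124 and miR-9), 5 of 5 were detected on all arrays, as the labelled tissue calls for. The control and dark-reared arrays shared slide 1 and scan 1. The 3 monocularly deprived arrays were alone on slide 2 and scan 2, where the bright corner control spots had medians of 476 to 731 intensity units, against 8936 to 15252 on slide 1. For both comparisons with monocular deprivation, slide and group cannot be told apart. Precision is limited by having 3 arrays a group.

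One member, miR-15b, passed the test in 1 comparison: after scaling it was 1.40-fold higher in monocularly deprived than in control cortex. Those groups were on different slides, and before scaling their miR-15b intensities overlapped. After scaling, miR-195 and miR-497 were higher in dark-reared than in control cortex on every array without passing the test, and 1 dark-reared array carried much of that difference. Also after scaling, miR-16 spanned 0.20 on the log2 scale over all 9 arrays, and the group means of miR-15a lay within 0.17 of each other.

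**Figure D1:**
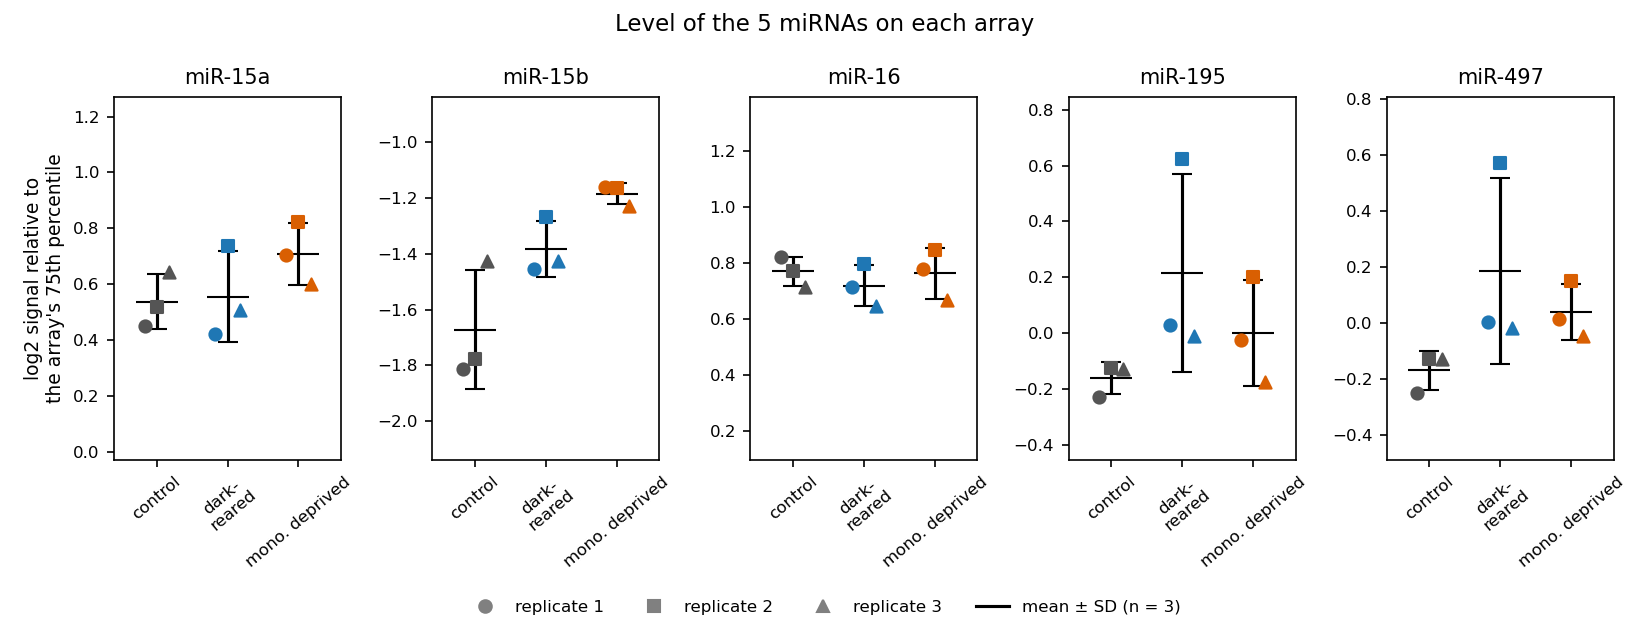
Each panel plots 1 member, with the log2 signal relative to the array's 75th percentile on the vertical axis and the 3 groups on the horizontal axis. Points are arrays and bars are the mean ± SD (n = 3). miR-15b lies highest in the monocularly deprived group, between -1.23 and -1.16, and dark-reared replicate 2 stands apart for miR-195 and miR-497.

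In the comparison of dark-reared with control cortex, which were on the same slide, 0 of 5 members passed limma's moderated test at an adjusted p under 0.05, and 0.629% of all tested miRNAs did. At an unadjusted p under 0.05 the count was 1 of 5 (miR-15b). The groups did not overlap for 2 of 5 members, miR-195 and miR-497, against 18.6% of all tested miRNAs. Of the 5 members, 4 had changes above 0, as did 198 of the 318 tested miRNAs (62.3%). The median log2 change of the members was 0.29, and that of all tested miRNAs was 0.05. The members' median was 0.16 without dark-reared replicate 2, 0.16 with the percentile taken over all probes, 0.13 with normexp and 0.07 with no scaling.

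In the comparison of monocularly deprived with control cortex, 1 of 5 members passed, against 33% of all tested miRNAs, or 15.7% in the direction of miR-15b. A share of 1 in 5 lies between these background values and is not a result about the family. The groups did not overlap for 2 of 5, miR-15b and miR-497, against 52.8% of all. The members' median log2 change was 0.17 and that of all tested miRNAs 0.08. It was 0.72 with the percentile taken over all probes and -0.06 with no scaling. Over all miRNAs, 50 were called higher and 55 lower. This split depended on the scaling, with 201 higher and 33 lower when the percentile was taken over all probes, 63 and 36 after quantile normalization, and 0 and 36 with no scaling.

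Between monocularly deprived and dark-reared cortex, 0 of 5 members passed in limma, and 0 of 5 did so at an unadjusted p under 0.05, while 28.6% of all tested miRNAs were called. The groups did not overlap for 1 of 5, miR-15b, against 46.5% of all. The members' median log2 change was 0.04, against 0.03 for all tested miRNAs, and 0.72 with the percentile taken over all probes. Over all miRNAs 31 were called higher and 60 lower, with 212 and 35 when the percentile was taken over all probes, 68 and 36 after quantile normalization, and 0 and 37 with no scaling. The first 2 comparisons share the control arrays, so their changes are not independent of each other. With limma's robust prior and intensity trend, the counts of members called were the same in all 3 comparisons.

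**Figure D2:**
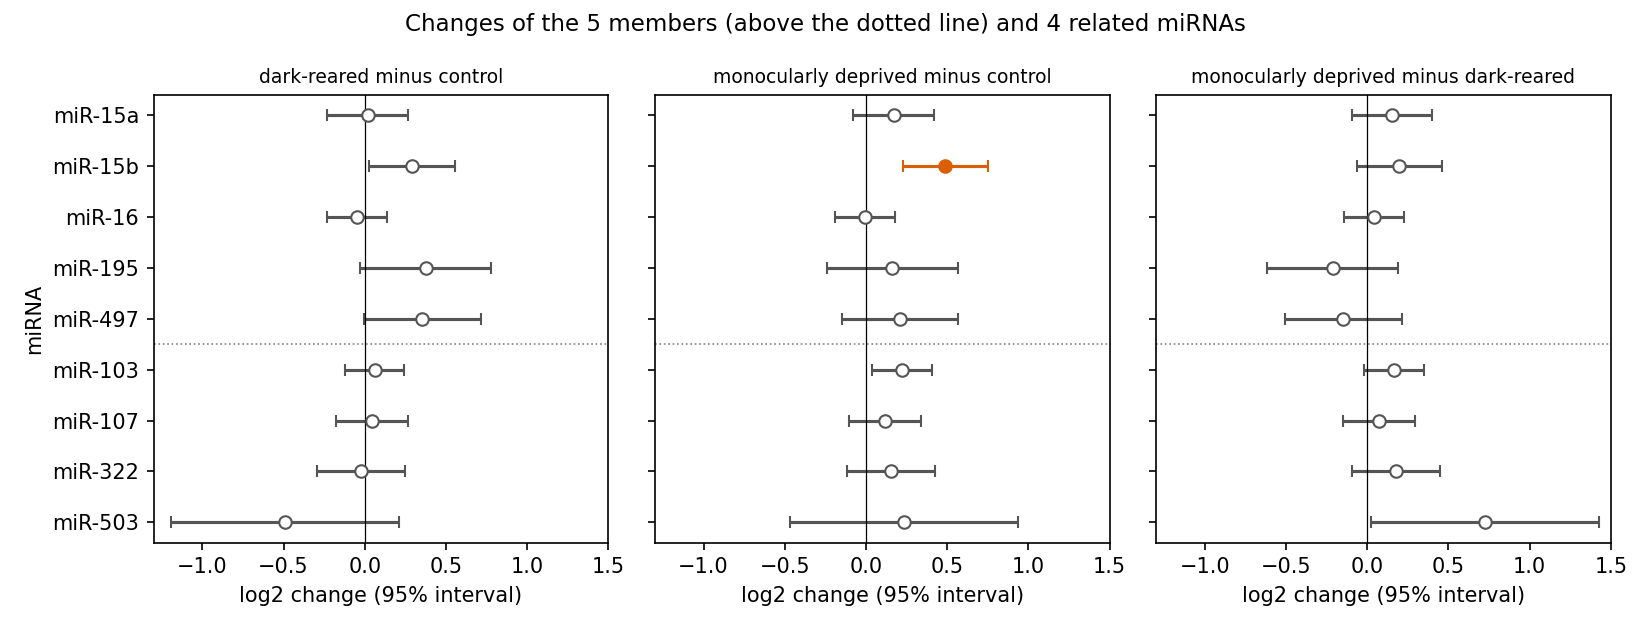
Points are log2 changes and bars their 95% intervals from limma, for the 5 members above the dotted line and 4 related miRNAs below it, with 1 panel per comparison. Orange marks an adjusted p under 0.05, which holds only for miR-15b in monocularly deprived minus control, at 0.49.

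miR-15b is the partner of miR-16 in the Smc4 cluster. Its log2 level was -1.81, -1.78 and -1.43 in control replicates 1 to 3. It was -1.45, -1.27 and -1.42 in the dark-reared and -1.16, -1.16 and -1.23 in the monocularly deprived replicates. Every monocularly deprived array lay above all 6 others, whereas control replicate 3 lay within the dark-reared range. The group means were -1.67 ± 0.21, -1.38 ± 0.10 and -1.18 ± 0.04 (SD, n = 3), in the order control, dark-reared, monocularly deprived.

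The log2 change of miR-15b from control to monocular deprivation was 0.49 (SE 0.11, 95% interval 0.23 to 0.75, limma adjusted p 0.0133). By size it ranked 87 of 318 and by p-value 61, so many other miRNAs moved as far between these slides. From control to dark rearing it was 0.29 (SE 0.11, 95% interval 0.03 to 0.55, adjusted p 0.471, or 0.0339 unadjusted), a 1.22-fold difference that did not pass. Between the deprived groups it was 0.20 (SE 0.11, 95% interval -0.06 to 0.46, adjusted p 0.228). The middle group is therefore not set apart from either neighbour by the test.

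The call for miR-15b did not hold throughout. Without control replicate 1 the change was 0.42 (limma adjusted p 0.0507) and without control replicate 2 it was 0.43 (adjusted p 0.0546). It was 0.14 (adjusted p 0.648) with normexp background correction and 0.26 (adjusted p 0.998) with no scaling. Before scaling, its intensity was 291, 144 and 288 on the control arrays and 278, 286 and 257 on the monocularly deprived ones, so the groups overlapped. Set against the median change of all miRNAs, miR-15b was higher by 0.41 on the log2 scale in the reported fit, and by 0.25 to 0.42 with the other scalings.

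Sums of some markers of other cells were also higher in monocularly deprived cortex. For the counts against control below, 33% of all tested miRNAs were called, 15.7% of all were called higher, and 52.8% did not overlap. The summed scaled signal of 3 of 3 red blood cell miRNAs (miR-451, miR-144 and miR-486) was 1.88, 1.33 and 2.56 in controls, 2.62, 1.44 and 2.34 in dark-reared and 2.73, 3.00 and 2.69 in monocularly deprived samples. On that sum the monocularly deprived arrays again lay above all 6 others, although 0 of 3 markers passed limma's test (log2 changes 0.35 to 0.61 over control, adjusted p 0.0898 to 0.296, with 2 of 3 not overlapping). Choroid plexus and epithelial miRNAs (4 of 4 detected on all arrays) summed to 0.703 to 0.778 in controls and 0.851 to 0.918 in monocularly deprived samples, and 2 of 4 were called higher. Oligodendrocyte miRNAs (3 of 3 detected) summed to 2.50 to 3.19 and 3.05 to 3.70, with 1 called higher and 1 lower. Vascular miRNAs (3 of 4 detected on all arrays) summed to 1.77 to 1.97 and 1.94 to 2.11, with 2 called lower. Microglial and leukocyte miRNAs summed to 0.425 to 0.471 and 0.396 to 0.468, with 4 of 6 detected on all arrays and miR-155 on none. Their log2 changes ran from -0.77 to 0.84, with 1 of 5 tested called lower and 2 of 5 not overlapping. Neuronal miRNAs summed to 70.0 to 70.9 in controls and to 63.6, 81.3 and 57.6 in monocularly deprived samples, with 1 of 5 called lower and 2 of 5 not overlapping. The part of these cells in the miR-15b result was not tested. In bulk tissue, a change in the number of cells of a type and a change in RNA per cell cannot be told apart.

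miR-195 and miR-497, the chromosome 11 pair, behaved almost as 1 measurement. The log2 level of miR-195 was -0.23, -0.13 and -0.13 in controls, 0.03, 0.62 and -0.011 in dark-reared and -0.025, 0.20 and -0.17 in monocularly deprived samples. That of miR-497 was -0.25, -0.13 and -0.13, then 0.0028, 0.57 and -0.017, then 0.013, 0.15 and -0.048. For both, every dark-reared array was above every control array on this scale, and dark-reared replicate 2 was the highest of all 9. Before scaling the groups overlapped, with miR-195 intensities of 451 to 873 in controls and 617 to 807 in dark-reared samples and miR-497 intensities of 450 to 859 and 596 to 792. The monocularly deprived arrays overlapped the dark-reared ones for both.

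From control to dark rearing, miR-195 differed by 0.37 on the log2 scale, or 1.30-fold (SE 0.18, 95% interval -0.03 to 0.78, limma adjusted p 0.510). The difference for miR-497 was 0.36, or 1.28-fold (SE 0.16, 95% interval -0.0033 to 0.71, adjusted p 0.510). Neither passed the test. Without dark-reared replicate 2, the log2 changes were 0.17 (adjusted p 0.713) and 0.16 (adjusted p 0.604), and with no scaling they were 0.15 and 0.13 (adjusted p 0.974 for both). From control to monocular deprivation they were 0.16 (95% interval -0.24 to 0.56, adjusted p 0.487) and 0.21 (95% interval -0.15 to 0.57, adjusted p 0.331). From dark rearing to monocular deprivation they were -0.21 (adjusted p 0.390) and -0.15 (adjusted p 0.518).

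Dark-reared replicate 2 had the lowest 75th percentile of the 9 arrays, 401 intensity units, against 492 to 1022 on the others. Before scaling its miR-195 intensity was 617, below the 807 and 766 of the other dark-reared arrays. Its miR-16 intensity was 697, against 1296 and 1209, so within that array miR-195 stood higher relative to miR-16 whatever the scaling. The same array had the highest sum of choroid plexus and epithelial miRNAs, 1.23, against 0.932 and 0.933 in the other dark-reared samples and up to 0.778 in controls. Of that list 1 of 4 was called higher in dark-reared cortex, against 0.629% of all tested miRNAs called in either direction. The dark-reared and control groups did not overlap for 4 of 4, against 18.6% of all. Vascular miRNAs summed to 1.60 to 1.74 in dark-reared and 1.77 to 1.97 in control samples. Of their changes 4 of 4 were below 0, as were 120 of the 318 tested miRNAs. Neuronal miRNAs summed to 67.8 to 68.8 in dark-reared and 70.0 to 70.9 in control samples, with 0 of 5 called and 0 of 5 not overlapping. Microglial and leukocyte miRNAs summed to 0.435 to 0.445 and 0.425 to 0.471, with 0 of 5 tested called and 2 of 5 not overlapping. The oligodendrocyte sum of dark-reared replicate 2 was 3.55, against 2.57 and 2.68 in the other dark-reared samples. Its red blood cell sum was 1.44, against 2.62 and 2.34. The part of these cells in the miR-195 and miR-497 values was not tested.

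miR-16 is made from both the Dleu2 and the Smc4 loci. After scaling it was the steadiest member, with a log2 range of 0.20 over all 9 arrays, against 0.40 to 0.85 for the other 4. Before scaling its intensity was 842 to 1805 in controls, 697 to 1296 in dark-reared and 955 to 1152 in monocularly deprived samples. Without scaling it was the least steady member, as its highest intensity was a larger multiple of its lowest than for any other member. The scaled log2 level of miR-16 was 0.82, 0.77 and 0.72 in controls, 0.71, 0.80 and 0.65 in dark-reared and 0.78, 0.85 and 0.67 in monocularly deprived samples. The 3 groups overlapped. Its log2 changes were -0.05 for dark rearing (95% interval -0.24 to 0.13, limma adjusted p 0.843) and -0.0067 for monocular deprivation (95% interval -0.19 to 0.18, adjusted p 0.962), both against control. Between the deprived groups it was 0.04 (adjusted p 0.701). With the percentile taken over all probes, which moved the median change of all miRNAs to 0.62, the change under monocular deprivation was 0.55 (adjusted p 0.0174), or -0.07 relative to that median.

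miR-15a, the partner of miR-16 in the Dleu2 cluster, had log2 levels of 0.45, 0.52 and 0.64 in controls, 0.42, 0.74 and 0.51 in dark-reared and 0.70, 0.82 and 0.60 in monocularly deprived samples. All 3 groups overlapped. Its log2 change was 0.02 under dark rearing (95% interval -0.23 to 0.27, limma adjusted p 0.942), 0.17 under monocular deprivation (95% interval -0.08 to 0.42, adjusted p 0.256) and 0.15 between the deprived groups (adjusted p 0.323). The intervals leave room for a difference from control of up to 0.42 on the log2 scale.

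**Figure D3:**
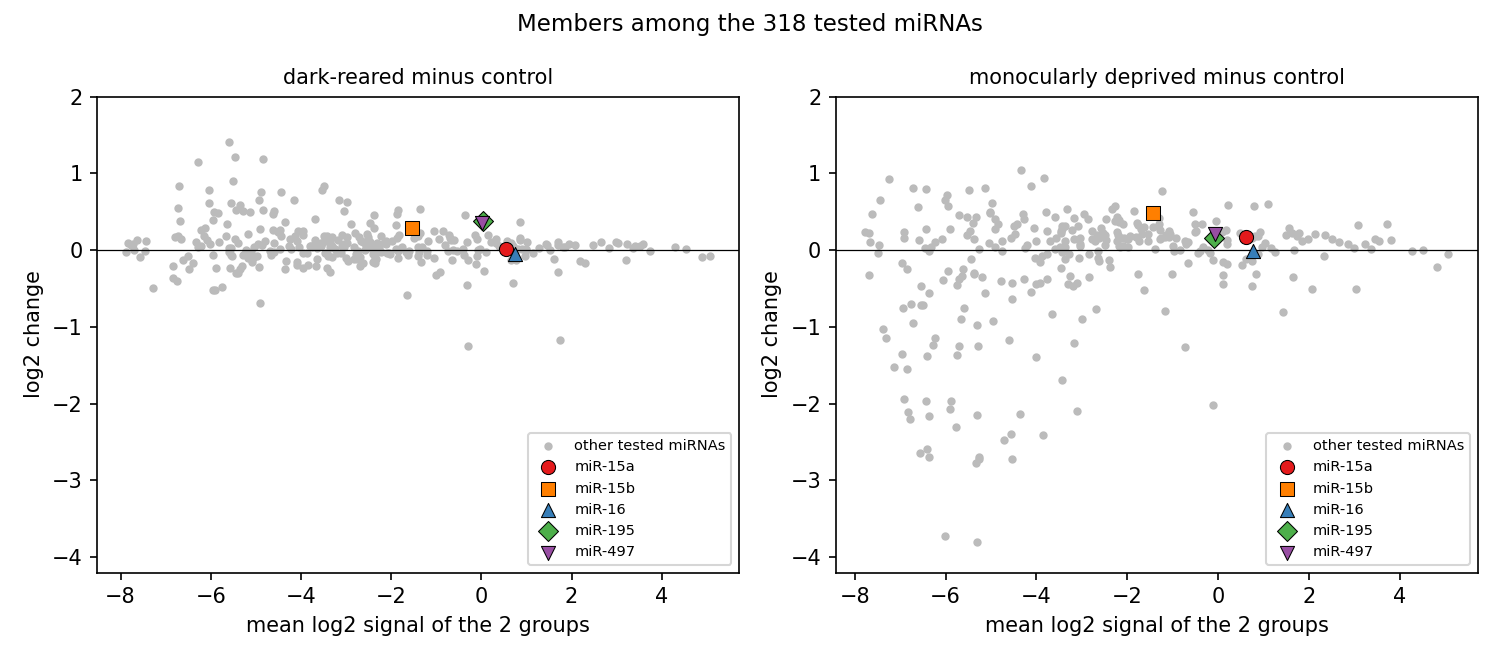
Each point is 1 of the 318 tested miRNAs, with the mean log2 signal of the 2 groups on the horizontal axis and the log2 change from control on the vertical axis, for dark rearing (left) and monocular deprivation (right). Coloured symbols are the 5 members, which have changes from -0.05 to 0.37 on the left and from -0.0067 to 0.49 on the right.

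Differences between 2 members on the same array do not depend on dividing the array by 1 factor. Whether members changed unequally was examined for 5 pairs in 3 comparisons with exact two-sided permutation tests over arrays. With 3 arrays against 3 the smallest possible p is 0.1, so no pair could pass 0.05, and the adjusted values over the 15 tests were 0.25 to 0.6. A change in such a difference shows unequal change and not which member moved.

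For the Smc4 cluster, miR-15b minus miR-16 was -2.63, -2.55 and -2.14 on the control arrays. It was -2.17, -2.07 and -2.07 on the dark-reared and -1.94, -2.01 and -1.89 on the monocularly deprived arrays. The monocularly deprived values lay above all others, and control replicate 3 lay within the dark-reared range. The change was 0.49 from control to monocular deprivation (exact permutation p 0.1, adjusted 0.25), 0.34 from control to dark rearing (exact p 0.2) and 0.15 between the deprived groups (exact p 0.1). With normexp background correction these were 0.10, 0.17 and -0.07. A normexp setting that omitted spots whose background was very bright, added after seeing the data, gave 0.41, 0.31 and 0.11. Between control and dark-reared arrays of the same replicate number, the difference was higher under dark rearing by 0.46, 0.49 and 0.07, and miR-15b itself by 0.36, 0.51 and 0.0022. All 3 pairs thus had the same sign, and an exact paired test on 3 pairs cannot go below 0.25. miR-16 is also made from the Dleu2 locus, so this difference is not that of 1 locus alone.

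For the Dleu2 cluster, miR-15a minus miR-16 was -0.23 ± 0.15, -0.16 ± 0.12 and -0.06 ± 0.03 (SD, n = 3) in control, dark-reared and monocularly deprived samples. The changes were 0.07, 0.18 and 0.11 for dark rearing and monocular deprivation against control and for the deprived groups (exact permutation p 0.6, 0.2 and 0.3), and all groups overlapped. For miR-195 minus miR-497, the corresponding values were 0.0094 ± 0.011, 0.03 ± 0.02 and -0.04 ± 0.09, with changes of 0.02, -0.05 and -0.07 (exact permutation p 0.2, 0.5 and 0.4). The difference stayed within a range of 0.18 over the 9 arrays, while miR-195 itself ranged over 0.85. Dark-reared replicate 2, which stood apart for both, had a difference of 0.05.

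The pairs from different clusters share the seed and most other bases. miR-15a and miR-15b differ at 4 of 22 bases, and miR-16 and miR-195 at 2 of 21. How far the probes of miR-195 and miR-16 read one for the other was not tested. miR-15a minus miR-15b was 2.21 ± 0.12 in controls, 1.94 ± 0.06 in dark-reared and 1.89 ± 0.08 in monocularly deprived samples (SD, n = 3). Its changes from control were -0.27 and -0.32, with no overlap in either case (exact permutation p 0.1 and adjusted 0.25 for both). miR-195 minus miR-16 was -0.93 ± 0.11 in controls, -0.51 ± 0.29 in dark-reared and -0.76 ± 0.10 in monocularly deprived samples. Its changes from control were 0.42 and 0.17, again without overlap (exact permutation p 0.1 for both). For monocular deprivation the groups almost touched, with the lowest value at -0.841 and the highest control value at -0.844. After quantile normalization that change was 0.20 (exact permutation adjusted p 0.409).

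**Figure D4:**
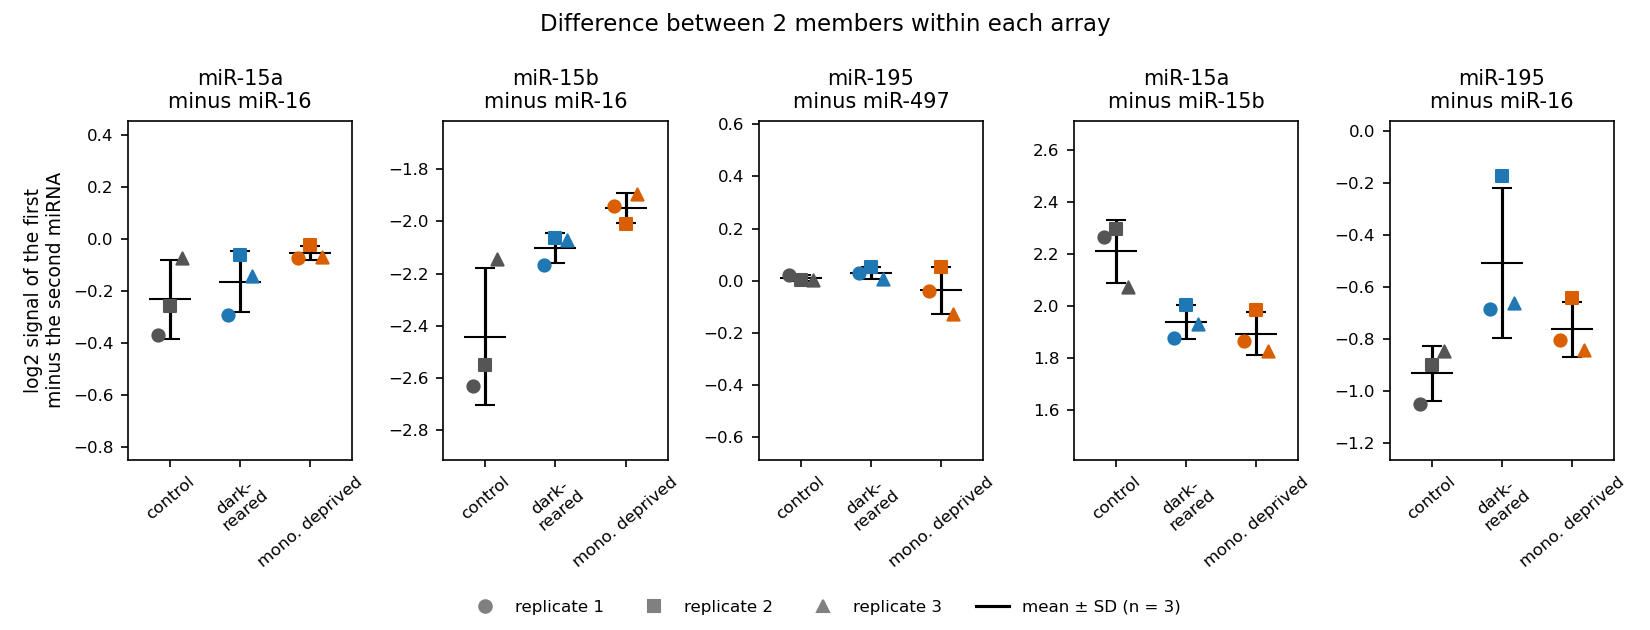
Each panel plots, for 1 pair of members, the log2 signal of the first minus that of the second on each array, by group, with the mean ± SD (n = 3) as bars. The miR-195 minus miR-497 values stay within 0.18 of each other, whereas miR-15b minus miR-16 spans 0.74 and is highest in the monocularly deprived group.

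Over the 9 arrays, the log2 levels of miR-195 and miR-497 correlated at Pearson's r of 0.980, and at 0.999 over the 6 arrays of slide 1. For miR-15a and miR-15b r was 0.744, and for the cluster partners miR-15b and miR-16 it was -0.086. The closest pair by sequence, miR-16 and miR-195, had r of 0.336 over the 9 arrays, 0.160 over the 6 arrays of slide 1 and 0.737 for deviations from the group means. Points on 1 array share its scaling and slide, and these values are descriptions of 9 arrays.

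The 2 probes of a member gave the same picture for miR-15b. Its shorter and longer probes differed by 0.46 and 0.50 on the log2 scale from control to monocular deprivation, without overlap on either. From control to dark rearing they differed by 0.27 and 0.30, with overlap on both. For miR-195 and miR-497 all 4 probes were higher in every dark-reared than in every control array, by 0.31 to 0.40. Under monocular deprivation the probes of miR-195 parted, with -0.012 on the shorter and 0.22 on the longer. Those of miR-16 differed in sign, -0.11 and 0.02. For miR-16 the longer probe was brighter than the shorter by 1.82 to 1.86 on the log2 scale on the arrays of slide 1. On the monocularly deprived arrays it was brighter by 1.95 to 2.00. For miR-195 these values were 1.51 to 1.67 and 1.77 to 1.80, again without overlap between the slides. The slides overlapped for miR-15b, miR-497 and miR-15a, the last with 0.19 to 0.26 over all arrays. The reason was not tested.

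The wider group around the family on these arrays adds miR-103, miR-107, miR-322 and miR-503. Their seeds, in capitals, show how they relate to the 5 members.
miR-103: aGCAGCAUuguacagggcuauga
miR-107: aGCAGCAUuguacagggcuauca
miR-322: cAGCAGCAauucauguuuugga
miR-503: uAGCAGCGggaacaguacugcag
miR-322 holds the same seed as the family, miR-103 and miR-107 hold the same letters shifted by 1 base, and miR-503 differs within the seed. miR-103 and miR-107, which lie in pantothenate kinase genes, are known for effects on insulin sensitivity in mouse liver and fat. miR-322 and miR-503 form a cluster on chromosome X that acts in muscle differentiation in mouse.

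None of these 4 passed limma's test in any of the 3 comparisons. Of all tested miRNAs, 0.629% passed for dark rearing and 33% for monocular deprivation, both against control, and 28.6% between the deprived groups. Their median log2 changes were 0.01 for dark rearing, 0.19 for monocular deprivation, both against control, and 0.17 between the deprived groups. miR-103 came closest, with levels of 1.60, 1.71 and 1.69 in controls and 1.86, 1.99 and 1.80 in monocularly deprived samples. The groups did not overlap, which held for 52.8% of all tested miRNAs in this comparison. The log2 change of miR-103 was 0.22 (SE 0.08, 95% interval 0.04 to 0.41, limma adjusted p 0.0649). miR-107 differed by 0.12 (adjusted p 0.366) and miR-322 by 0.15 (adjusted p 0.342) in that comparison. miR-503 was detected on 1 of 3 control, 1 of 3 dark-reared and 3 of 3 monocularly deprived arrays, at levels of -7.10 to -6.65 in the last group, and 2 dark-reared values were at the floor of -7.89.

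The passenger strands, the other arms of the hairpins, were hardly seen. miR-15b*, miR-16*, miR-322* and miR-503* were detected on 0 of 9 arrays and miR-15a* on 1, dark-reared replicate 1, so none was tested. miR-195* and miR-497* were not among the mouse miRNA names on these arrays, so they could not be examined.

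The 5 tested miRNAs whose levels followed the mean of the family most closely over the 9 arrays, of 309 candidates, were miR-192 (Pearson's r 0.966), miR-140* (0.931), miR-26b (0.927), miR-582-5p (0.922) and miR-598 (0.917). Over the 6 control and dark-reared arrays r was 0.980, 0.943, 0.960, 0.942 and 0.996 in the same order. The family mean was highest on dark-reared replicate 2, at 0.29 against -0.20 to 0.17 on the other arrays, so that array weighs on these values. None of the 5 passed limma's test in any comparison. Of all tested miRNAs, 0.629% passed for dark rearing and 33% for monocular deprivation, both against control, and 28.6% between the deprived groups. miR-598 came closest, 0.34 higher on the log2 scale in monocularly deprived than in control cortex (adjusted p 0.0636), and miR-192 was 0.25 higher under dark rearing (adjusted p 0.539) and 0.28 higher under monocular deprivation (adjusted p 0.126).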

How the data were processed

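Per the labels, 100 ng of total RNA per sample was labelled with Cy3 and hybridised to 1-colour Agilent mouse miRNA arrays, 1 per sample. Per the file headers, the deposited intensity values come from Agilent Feature Extraction 10.1.1.1. The authors' series matrix equalled the processed intensity at 100% of spots, so it holds unscaled values. Outlier spots were left out. Spots were averaged per probe and probes per miRNA on the linear scale, and each array was scaled to its 75th percentile (401 to 1022 units) over 433 probes that were well above background throughout. Values under the 1st percentile of detected miRNAs (log2 -7.89) were raised to it. Detection on every array of any group was required for testing, and 318 miRNAs met this.

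One model with 3 group means was fitted over the 9 arrays with limma 3.58.1 (R 4.3.3), with 6 residual and 2.21 prior degrees of freedom. Benjamini-Hochberg adjustment ran over the 318 miRNAs of a comparison, and adjusted p under 0.05 was called. The fit was tested on simulated data. Sequences came from RefSeq tables on GRCm38.p6. The members, related miRNAs, passenger strands and cell type markers were chosen with earlier results of these data known. The miRNAs named beside these lists are the 5 with the highest correlation with the mean of the members. Alternatives covered scaling, background correction, probe summary, filter, floor, outlier spots, samples in the fit, moderation, a replicate block and leaving out each array. The normexp correction without spots of very bright background and the block on the control and dark-reared arrays alone were added after seeing the data.

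Replicate numbers are from the labels. Deviations from the group means over the 318 miRNAs correlated between same-numbered control and dark-reared arrays at 0.887, 0.324 and 0.815. All exceed 0.1, so these numbers were taken to pair them, although control replicate 2 correlated more closely with dark-reared replicate 3 (0.615). The same-numbered arrays also share a column of slide 1. The reported fit and the permutation tests did not use the pairing, and the replicate block was fitted as an alternative. The monocularly deprived arrays did not pair with either group (-0.385 to 0.213).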

Additional observations from a re-analysis of the deposited data

How the results depend on the processing

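The log2 change of miR-15b from control to monocular deprivation stayed above 0 in all 25 alternatives and stayed past the threshold in 20. It was lost with no scaling (0.26, adjusted p 0.998), normexp (0.14, 0.648), normexp without very bright background spots, chosen after seeing the data (0.40, 0.172), without control replicate 1 (0.42, 0.0507) and without control replicate 2 (0.43, 0.0546). Leaving out 1 array gave 0.42 to 0.61 (limma adjusted p 0.00295 to 0.0546). The cause was not tested.

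The number of members called higher under monocular deprivation against control, 1 as reported, was 5 with the percentile over all probes, 0 with no scaling and with both normexp settings, and 0 to 1 leaving out 1 array. Against dark rearing it was 4 with the percentile over all probes and 0 otherwise. For dark rearing it was 0 in all 26 alternatives. That scaling put the median change of all miRNAs at 0.62 against control and 0.70 against dark rearing. Over all miRNAs, the 2 dark-rearing calls became 1 with the percentile over all probes, quantile normalization, mean log2 probe values, total gene signal, outlier spots kept, the later normexp setting and the replicate block (all 9 arrays or, chosen after seeing the data, only control and dark-reared arrays). They became 0 with no scaling, normexp and a 5th percentile floor, 4 for miRNAs detected on all arrays, and 0 to 3 leaving out 1 array, with 0 without any control or dark-reared array or monocularly deprived replicate 1. The 105 calls of monocular deprivation against control became 234 with the percentile over all probes, 36 with no scaling, 2 with normexp, 6 with its later setting and 66 to 104 leaving out 1 array (69, 66 and 69 without control replicate 1, control replicate 2 and monocularly deprived replicate 1). The 91 against dark rearing became 247, 37, 1, 3 and 49 to 91 (54 without dark-reared replicate 1 and 49 without monocularly deprived replicate 1). The replicate block changed no call of a member.

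Changes near 0 turned sign. For dark rearing, miR-15a was -0.11 with the percentile over all probes, -0.020 with quantile normalization, -0.21 with no scaling and -0.073 to 0.084 leaving out 1 array. For monocular deprivation against control, miR-16 was 0.55 with the percentile over all probes, 0.041 with normexp, 0.019 on the brightest probe, 0.0027 with outlier spots kept and -0.048 to 0.042 leaving out 1 array. With no scaling miR-15a, miR-195 and miR-497 were -0.062, -0.071 and -0.024. Against dark rearing, miR-195 and miR-497 were 0.47 and 0.53 with the percentile over all probes, and miR-497 was -0.25 to 0.046 leaving out 1 array. Among the pairs, miR-195 minus miR-497 changed by -0.012 under dark rearing with quantile normalization. miR-15a minus miR-16 changed there by -6.43e-05 to 0.15 leaving out 1 array. Between the deprived groups, miR-15a minus miR-15b changed by 0.070 with quantile normalization and 0.17 with normexp, and miR-15b minus miR-16 by -0.074 with normexp. Against control, miR-15a minus miR-15b changed by 0.047 under monocular deprivation with normexp. With the later normexp setting these normexp values were, in the same order, -0.0042, 0.11 and -0.25, so their signs did not turn.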
